A study of Canis lupus familiaris with 10 samples.

Results

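LCP1 encodes plastin-2, also called L-plastin or lymphocyte plastin, and the chromatin of its locus was examined here in 2 canine B-cell lymphoma cell lines by ATAC-seq. In this assay a transposase cuts and tags DNA that is not covered by nucleosomes, and stretches where the sequenced fragments pile up are called as peaks of accessible chromatin. The members described are all peaks of the 10 deposited peak lists on chromosome 22 between 4800000 and 5200000 in the dog genome build CanFam3.1, a window of 400 kb. Peaks of any library that touched or overlapped were merged. This gave 23 regions built from 136 peaks, of 59420 regions and 282896 peaks in the whole series.

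CLBL-1 and another canine B-cell lymphoma line were grown with or without 100 nM C220, which the sample labels call PR220. C220 is an inhibitor of the arginine methyltransferase PRMT5. The other line is here called the day 4 line, after its day of collection. It is the only B-cell lymphoma cell line that the paper names besides CLBL-1. The paper's remaining cell line, OSW, is a T-cell lymphoma line and has no library here. The labelled name of the day 4 line stands in the legends of the plots. The day 4 line has the libraries B1, B2 and B3 (control) and B4 and B6 (C220). The CLBL-1 libraries, collected on day 2, are C2 and C3 (control) and C4, C5 and C6 (C220). Line and day of collection therefore cannot be told apart. Each group is a set of libraries from an established line, and outlying libraries had been removed by the authors. The study describes its ATAC-seq as replicated biological experiments, but the labels do not say whether libraries came from separate cultures, so p-values measure the spread between these libraries. Markers of B cells, T cells and myeloid cells at their gene starts, and the listed genes of the cytoskeleton, were not analysed here because they need a gene annotation of CanFam3.1.

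Plastin-2 is an actin-bundling protein. It is made mainly by leucocytes, where it cross-links actin filaments in the cell cortex and in adhesion structures, and it is also known from many tumour cells outside the blood lineage. PRMT5 places symmetric dimethyl marks on arginines of histones and of many other proteins, and some of its histone marks are associated with gene silencing. A region inside the body of LCP1, chr22:5010112-5011091 (ENSCAFG00000004491, plus strand), was selected on measured values, the study's read counts of the same libraries in its comparison of C220 with control in the day 4 line. The control and C220 values of that line given below are accordingly a description without a test.

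The region inside LCP1 was called in B1, B2 and B3, the 3 control libraries of the day 4 line, and in none of the other 7 libraries. In B1 the peak lay at chr22:5010126-5011091, with a fold enrichment of 2.28 and a −log10 p of 13.5. The fold enrichment is the ratio of the fragment pileup to the local background that the peak caller computed, and −log10 p is its evidence for the peak, which grows with depth as well as with enrichment. In B2 the peak lay at chr22:5010112-5010884, with a fold enrichment of 1.91 and a −log10 p of 6.89. In B3 it lay at chr22:5010139-5010903, with a fold enrichment of 2.07 and a −log10 p of 9.54. The control peaks thus covered nearly the same ground, with 746 bp common to all 3 (chr22:5010139-5010884) of a merged length of 980 bp. Their mean fold enrichment was 2.09 ± 0.19 (SD, n = 3). No peak of B4, B6 or any CLBL-1 library reached into it: the nearest merged region ended 1664 bp before it and the next began 4194 bp after it. Whether it is exonic or intronic was not analysed here.

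**Figure D1:**
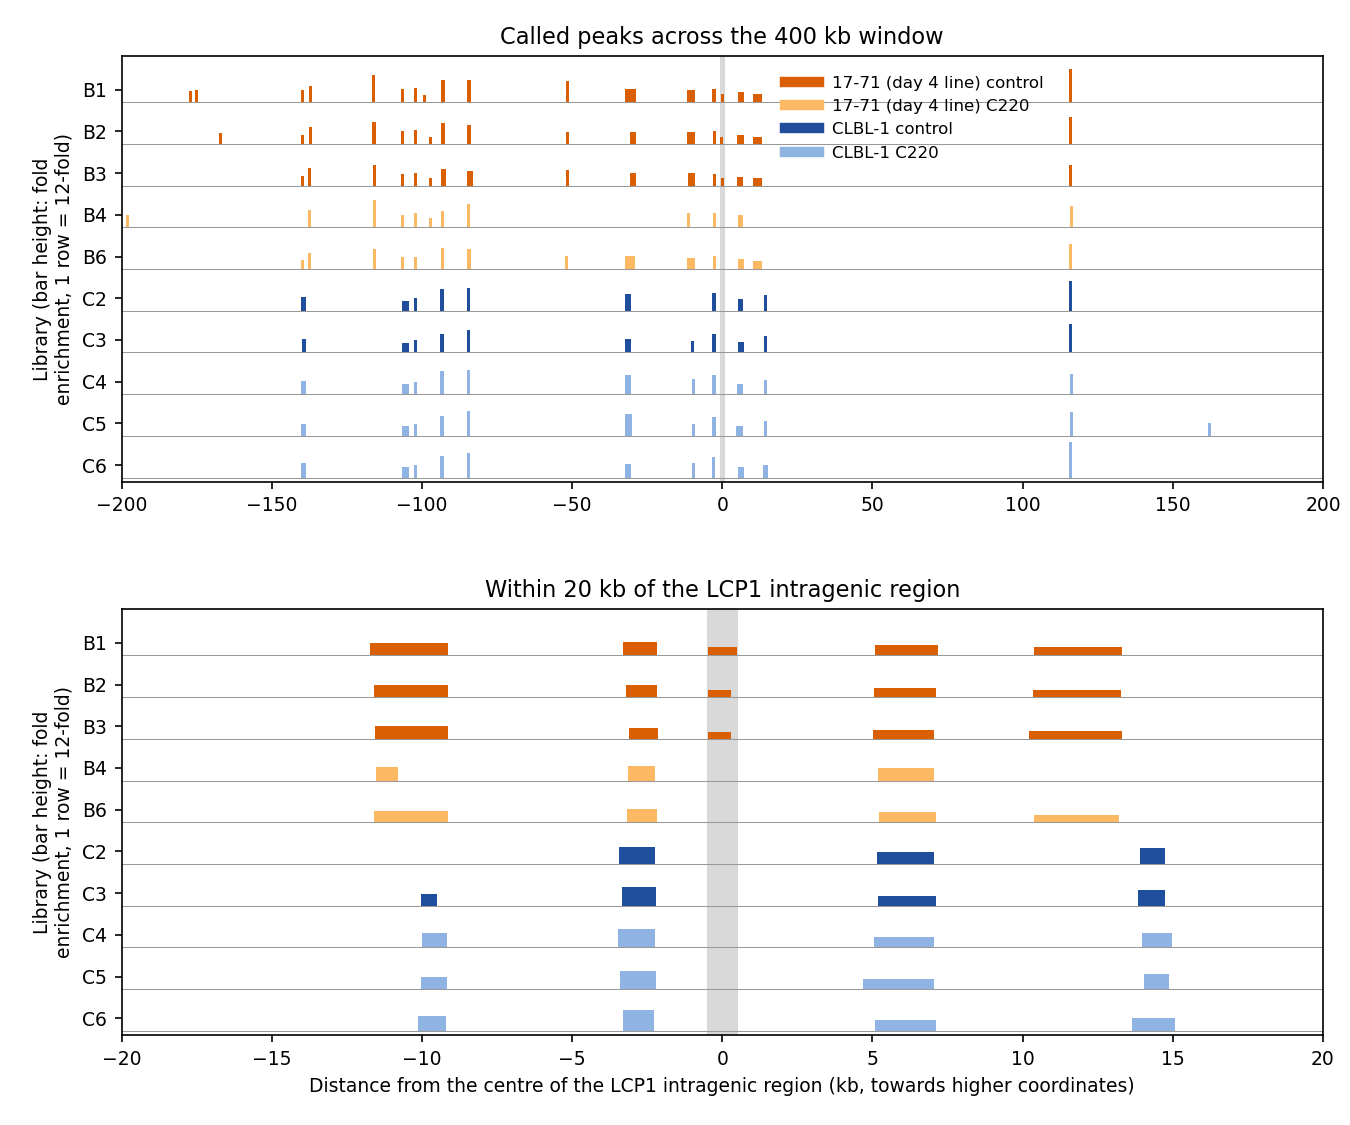
Peaks called in each of the 10 libraries, by distance in kb from the centre of the intragenic LCP1 region (grey band), over the whole window (top) and within 20 kb (bottom). Each bar is the span of a library's peaks in a merged region and its height is their highest fold enrichment on a linear scale; narrow bars in the top panel are drawn at a minimum width. The legend gives the day 4 line with its labelled name. Within the grey band only B1, B2 and B3 have a bar, the lowest or nearly the lowest of these libraries within 20 kb.

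By fold enrichment the intragenic peaks were among the weakest of their libraries. Of all peaks of B1 only 1.15% had a fold enrichment at or below 2.28, of B2 0.579% at or below 1.91, and of B3 0.847% at or below 2.07. By −log10 p they ranked far higher, since 60.3% of the peaks of B1, 28.1% of those of B2 and 49.4% of those of B3 had a lower −log10 p. Peaks of B1 with a −log10 p within 10% of 13.5 had a median fold enrichment of 4.52, and 0.574% of them lay below the intragenic peak. The corresponding median was 3.20 in B2, with 0.718% below, and 3.68 in B3, with 0.782% below. The intragenic LCP1 region was therefore a low-ratio peak for the evidence it carried in each of the 3 control libraries.

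**Figure D2:**
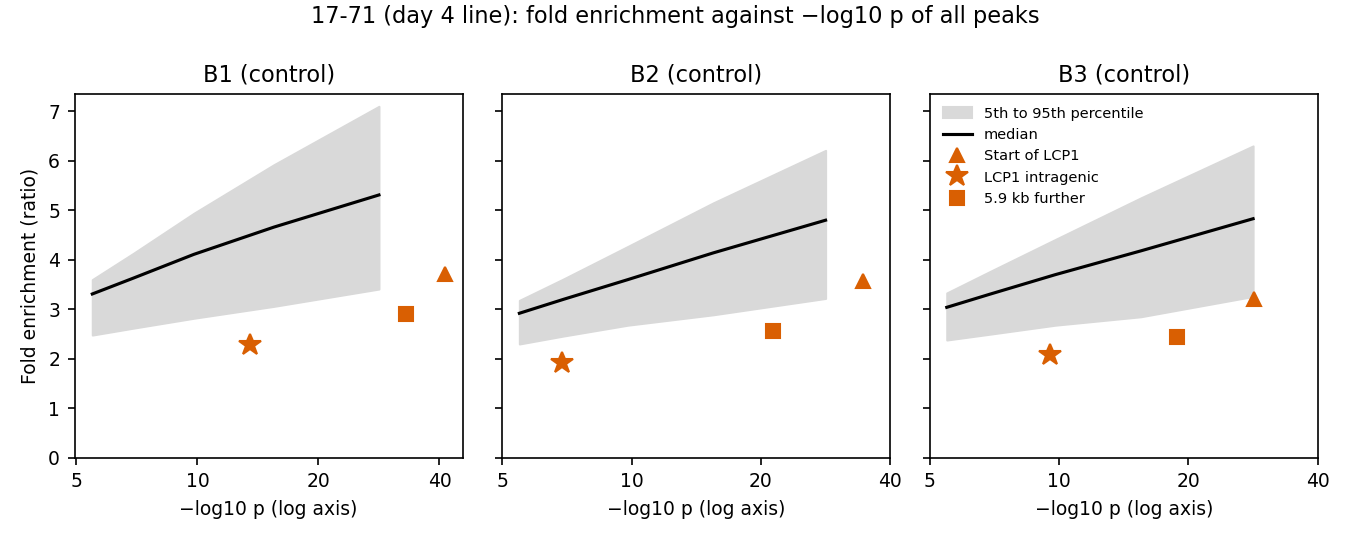
Fold enrichment (ratio) against −log10 p (log axis) in the 3 control libraries of the day 4 line. The line is the median and the grey band the 5th to 95th percentile of all peaks with a −log10 p between 5 and 40, drawn at the middle of each class. The star is the intragenic LCP1 region, the triangle the region over the start of LCP1 and the square the region 5.9 kb further on; the star lies below the band in all 3 libraries.

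How low a ratio each library called bears on a missing call. The lowest fold enrichment of any peak in the window was 2.71 in B4 and 2.19 in B6. Over the whole list of B4, 1.07% of peaks lay at or below the ratio of B1 at the intragenic region (2.28) and 0.381% at or below that of B2 (1.91). For B6 these shares were 1.47% and 0.474%. The B6 peak of 2.19, at chr22:5020994-5023826, had a −log10 p of 5.22, just above the caller's limit of 5. In CLBL-1 the lowest ratio called in the window was between 2.65 (C3) and 2.94 (C6), above all 3 control values of the intragenic region. Elsewhere in the genome all 7 libraries without a call at the intragenic region did call ratios of this size, with between 0.416% (C2) and 1.47% (B6) of their peaks at or below 2.28 and between 0.0823% (C6) and 0.474% (B6) at or below 1.91. Whether accessibility at the intragenic region differed was not tested, because a missing call gives no value.

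Across the 48704 regions called in the day 4 line, 3380 were called in every control and in no C220 library, which is 6.94%. In the window this held for 1 of 21 regions, the intragenic LCP1 region. The reverse, a call in both C220 libraries and no control library, occurred in 0.211% of all regions and in 0 of the 21. Among the 3380 lost regions, 74.7% had a smaller weakest control −log10 p than the 6.89 of the intragenic region. Only 0.296% had a lower mean control fold enrichment, the median being 3.52. Of the lost regions, 57.4% were, like the intragenic region, called in no CLBL-1 library. That share was close to the one over all regions called in the day 4 line. Of the 59420 regions of the series, 48704 were called in the day 4 line and 32440 in CLBL-1.

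What counted as lost rested on which C220 library was read. B4 held 22076 peaks in all, the shortest of the 10 lists, against 27646 in B6 and between 30943 and 44378 in the control libraries. In the window B4 had 12 peaks, B6 15, and B1, B2 and B3 had 19, 17 and 16. Set against the length of each list, the window held 5.44 peaks per 10000 in B4 and 5.43 in B6, and 4.28, 5.10 and 5.17 in B1, B2 and B3. The C220 libraries thus had fewer peaks in the window but not fewer for the length of their lists. Regions called in all 3 control libraries but not in B4 numbered 5 in the window, and 4 of them were called in B6. The intragenic LCP1 region was the exception, so that with B6 left out 5 regions counted as lost in place of 1. With the −log10 p required to be at least 10, the call at the intragenic region stayed in B1 only (1 of 3 control libraries), and with every list cut to its 20000 peaks of largest −log10 p it stayed in 2.

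The start of LCP1, chr22:5007147-5008447, carried a peak in all 10 libraries. It is the region whose part called in the day 4 line the study's table pairs with LCP1 as overlapping its start, and it lies 1664 bp from the intragenic region. Fold enrichment there was 3.72, 3.58 and 3.21 in the control libraries B1, B2 and B3, and 4.19 and 3.88 in the C220 libraries B4 and B6. Both C220 values lay above all control values, a difference of 0.21 in mean log2 fold enrichment. Of the 17601 regions that all 5 libraries of the day 4 line called, 4.1% had every C220 library above every control library and 17.3% every C220 library below. In the window 1 of 10 such regions lay above, this one, and 0 lay below. These counts turned on single libraries, with 6 above and 1 below without B6, 1 above and 4 below without B4, 3 above without B1 and 2 below without B3. The −log10 p at the start moved the other way, from 41.3, 34.5 and 28.4 in the control libraries to 12.5 in B4 and 19.1 in B6. All 10 regions had a lower −log10 p in both C220 libraries than in any control library, against 64.4% of all regions, with the opposite in 0.608% of all regions. Ratio and evidence therefore went opposite ways at the start of LCP1, and the part of depth in this was not tested.

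In CLBL-1, a contrast that did not enter the choice of the locus, the start of LCP1 had a fold enrichment of 5.01 and 5.25 in the control libraries C2 and C3. The C220 libraries C4, C5 and C6 had 5.40, 5.30 and 5.97. These groups did not overlap, with a difference in mean log2 fold enrichment of 0.11 (exact permutation test, two-sided, p = 0.2). With 10 possible relabellings the smallest attainable p was 0.1. The difference was 0.06 without C6 and 0.15 without C3. Every C220 library lay above every control library at 8.35% of the 18339 regions called in all 5 CLBL-1 libraries and below at 7.5%. In the window the counts were 2 and 1 of 10. They too turned on single libraries, with 6 above without C2, 3 below without C3, 4 above without C5, and 3 above and 4 below without C6. The intragenic region itself had no call in either group, so no difference between C220 and control could be measured in CLBL-1.

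Over all 5 libraries of each, the 2 lines differed at the start of LCP1. Fold enrichment was 3.72 ± 0.36 (SD, n = 5) in the day 4 line and 5.39 ± 0.36 (SD, n = 5) in CLBL-1, and the highest day 4 value (4.19) lay below the lowest CLBL-1 value (5.01). The difference was −0.54 in mean log2 fold enrichment (exact permutation test over all splits into 5 and 5, two-sided, p = 0.00794, adjusted by Benjamini-Hochberg over 9179 regions p = 0.0364). This p is the smallest the 5 against 5 libraries can give. Across all 9179 regions called in all 10 libraries, 17.4% were lower in the day 4 line at this threshold and 4.46% higher, and in the window 1 of 7 was lower and 1 of 7 higher. Without any one of the CLBL-1 libraries the adjusted p rose to between 0.0628 and 0.0682, while the difference stayed between −0.56 and −0.50. The lines still separated completely in each of these runs, so the start kept the smallest attainable p. No region of the genome could therefore pass the threshold in them. In control libraries alone the difference was −0.55 (exact permutation adjusted p = 0.421) and in C220 libraries alone −0.46 (exact permutation adjusted p = 0.232). Splits of 3 against 2 libraries cannot reach an exact p below 0.1, so neither treatment taken by itself could pass the threshold. The width of the peaks at the start did not pass the threshold, with 1001 ± 90.4 bp in the day 4 line and 1168 ± 75.8 bp in CLBL-1 (SD, n = 5 each; log2 difference −0.22, exact permutation test, adjusted p = 0.078).

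**Figure D3:**
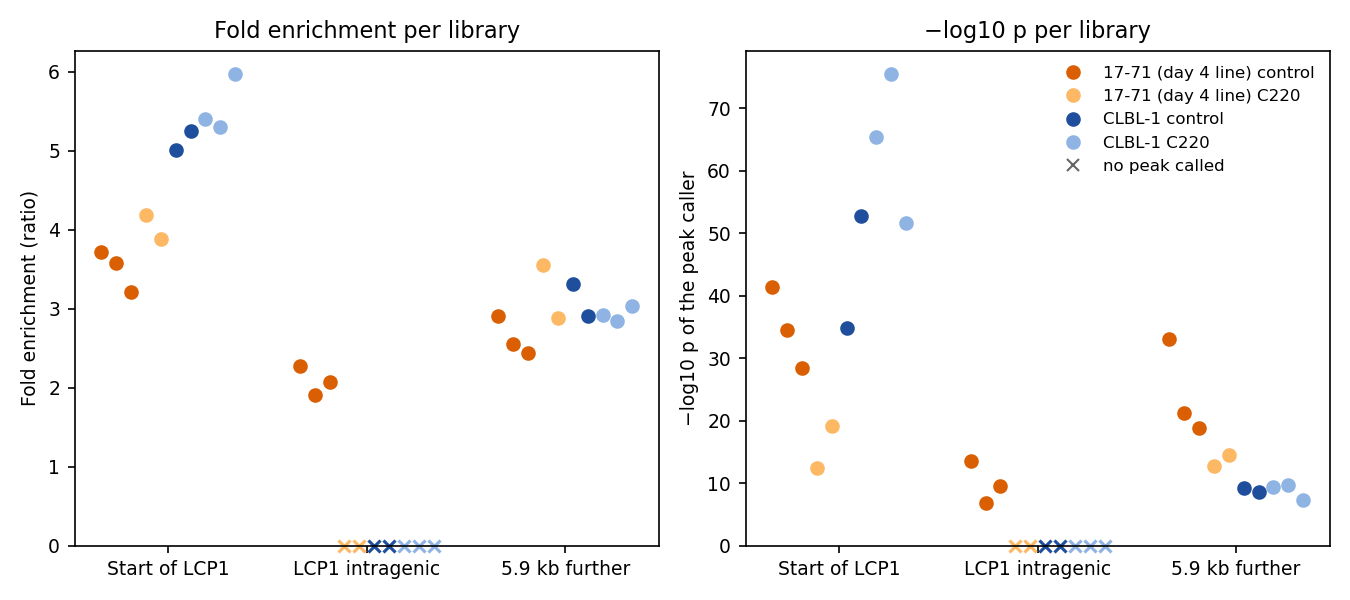
Fold enrichment (left) and −log10 p (right) of each library at the start of LCP1, at the intragenic region and 5.9 kb further on; crosses on the base line mark libraries without a call, not a value of 0. At the start the CLBL-1 libraries lie above the day 4 libraries in fold enrichment, and −log10 p in the day 4 line is lower in the C220 libraries at both flanking regions.

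Beyond the intragenic region, chr22:5015286-5017786 was again called in all 10 libraries. The study's table lists its part called in the day 4 line without a gene. Whether this region lies inside LCP1 was not analysed here. Fold enrichment was 2.91, 2.56 and 2.44 in B1, B2 and B3, 3.55 in B4 and 2.88 in B6, so that the groups of the day 4 line overlapped. In CLBL-1 it was 3.32 and 2.91 in the control and 2.92, 2.84 and 3.03 in the C220 libraries, which overlapped too (log2 difference −0.09, exact permutation p = 0.5). The lines did not differ past the threshold (log2 difference −0.08, exact permutation adjusted p = 0.604). With single libraries left out, this difference ran from −0.16 (without B4) to −0.02 (without B3). Taken on −log10 p in place of fold enrichment, the day 4 line was higher there (log2 difference 1.11, exact permutation adjusted p = 0.032). This region shared with the intragenic peak a low ratio for its evidence. In B1, B2 and B3 between 1.03% and 1.54% of peaks of like −log10 p had a lower fold enrichment, and at the start of LCP1 between 3.6% and 7.43%. The other libraries had shares of 3.14% and 5.13% in B6 and B4 and of 4.6% to 7.29% in CLBL-1 at the region beyond. At the start they had 13% and 18.6% in B6 and B4 and 16.3% to 30.9% in CLBL-1. The region beyond was thus low in ratio for its evidence in all 10 libraries, and the start less so outside the control libraries of the day 4 line.

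Further on, the lines were called at adjoining stretches. A broad region, chr22:5020803-5023914, was called in B1, B2, B3 and B6 only, with fold enrichments of 2.26, 1.94, 2.23 and 2.19. Only 326 bp after it, chr22:5024241-5025679 was called in all 5 CLBL-1 libraries and in no day 4 library. Fold enrichment at the latter was 4.45 and 4.61 in C2 and C3 and 4.06, 4.31 and 3.69 in C4, C5 and C6. Here every C220 library lay below every control library (log2 difference −0.18, exact permutation p = 0.2). It was the only region of the window called in all CLBL-1 and no day 4 libraries, 1 of 23 against 6.76% of all 59420 regions. Both regions were chosen for mention after their values were seen, and whether they lie inside LCP1 was not analysed here.

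Upstream of LCP1, chr22:4998871-5001485 was called in 9 libraries, all but C2, and its extent differed between the lines. It is listed in the study's table without a gene. In B1, B2, B3 and B6 a peak of 2610, 2461, 2423 and 2465 bp filled most of it, whereas B4 had a peak of 716 bp at its lower end. In C3, C4, C5 and C6 peaks of 524, 854, 845 and 944 bp lay at its upper end. Fold enrichment was 3.51, 3.34 and 3.59 in the control libraries of the day 4 line and 3.99 and 3.22 in B4 and B6, with overlapping groups. It was 3.26 in C3 and 4.23, 3.42 and 4.16 in C4, C5 and C6. The B4 peak and the CLBL-1 peaks did not overlap each other, so that a shared call in this merged region did not mean a shared site.

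Next to LRRC63, a leucine-rich repeat protein gene that neighbours LCP1, the peaks of the lines overlapped only in part. Its upstream region, whose part called in the day 4 line chr22:4979991-4981926 the study's table pairs with LRRC63 (ENSCAFG00000030857, minus strand), merged with peaks of CLBL-1 into chr22:4978123-4981926. B2 and B3 had a single peak from 4980037 and 4980009 onwards, and the CLBL-1 peaks ended between 4980286 and 4980405. B1 and B6 had a peak on either side, and B4 had none. Fold enrichment was 3.70, 3.46 and 3.70 in B1, B2 and B3 and 3.67 in B6. In CLBL-1 it was 4.76 and 3.95 in the control and 5.43, 6.18 and 4.00 in the C220 libraries, which overlapped (log2 difference 0.24, exact permutation p = 0.4). That difference was 0.06 by width-weighted fold enrichment, 0.10 without C3 or without C5, 0.37 without C2 and 0.42 without C6.

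Of the 6 rows of the study's table for the day 4 line that fall in the window or name LCP1, 2 are paired with LCP1, 1 with LRRC63 and 3 with no gene. Each of the 6 equals a region obtained here by merging the peaks of the day 4 libraries alone. None of the held rows of its CLBL-1 table (0 of 575) falls in the window, against 6 of 1999 held rows for the day 4 line. The locus was chosen on the day 4 comparison, which put at least the row of the intragenic region there. These counts are therefore no comparison of the lines. In the order of protein-coding genes of a later dog assembly (RefSeq, UU_Cfam_GSD_1.0), LCP1 is preceded by LRCH1, RUBCNL and LRRC63 and followed by LOC100683650, CPB2 and ZC3H13. RUBCNL encodes a regulator of autophagy, CPB2 a plasma carboxypeptidase that slows fibrinolysis, and ZC3H13 a component of the RNA m6A methylation machinery. Positions of that assembly were not carried over, so the remaining regions are given by distance from the centre of the intragenic LCP1 region.

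The strongest region of the window by median fold enrichment was chr22:5126107-5127451, at 116.2 kb. Fold enrichment was 9.65, 7.76 and 5.96 in B1, B2 and B3, and 6.04 and 7.13 in B4 and B6. It was 8.66 and 8.14 in C2 and C3, and 5.86, 6.81 and 10.33 in C4, C5 and C6. Groups overlapped in both lines (CLBL-1 log2 difference −0.17, exact permutation p = 0.6), and the lines did not differ past the threshold (log2 difference −0.12, exact permutation adjusted p = 0.631). The CLBL-1 difference was 0.00 without C4, −0.11 without C5 and −0.41 without C6. The difference between the lines ran from −0.22 (without B1 or without C4) to −0.02 (without C6). The spread within a group was wider here than at any region of LCP1, with an SD of 1.84 in day 4 control libraries (n = 3) and 2.35 in CLBL-1 C220 libraries (n = 3).

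Next in median fold enrichment among regions outside the study's table was chr22:4925589-4927551, at −84.0 kb. Values were 6.23, 5.45 and 4.27 in B1, B2 and B3 and 6.65 and 5.81 in B4 and B6, with overlapping groups. In CLBL-1 both control libraries had 6.51, and C4, C5 and C6 had 7.05, 7.20 and 6.98. This was the other region of the window with every CLBL-1 C220 library above every control library (log2 difference 0.12, exact permutation p = 0.1, the smallest possible). The lines differed by −0.28 in mean log2 fold enrichment without passing the threshold (exact permutation adjusted p = 0.0696). With single libraries left out, the difference passed only without B4 (−0.35, exact permutation adjusted p = 0.0326). It was smallest without B3 (−0.19).

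At chr22:4916499-4918488, at −93.1 kb, listed in the study's table without a gene, day 4 control libraries had 6.28, 5.91 and 4.91 and C220 libraries 4.74 and 5.96. CLBL-1 control libraries had 6.11 and 5.43 and C220 libraries 6.79, 5.79 and 6.12. Groups overlapped in both lines (CLBL-1 log2 difference 0.11, exact permutation p = 0.4; lines −0.13, exact permutation adjusted p = 0.342). With single libraries left out, the CLBL-1 difference ran from 0.03 (without C3) to 0.20 (without C2). The line difference ran from −0.17 (without B1) to −0.07 (without B4). The bases covered by the peaks were 1212, 1245 and 1420 in B1, B2 and B3, and 915 and 908 in B4 and B6. Peaks were thus shorter in both C220 libraries of the day 4 line at nearly the same ratio in B6.

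Among the 7 regions called in all 10 libraries, the lines differed most in width at chr22:4903841-4906384, at −105.5 kb, which was chosen for mention after its values were seen. The peak covered 920, 777 and 856 bp in B1, B2 and B3 and 457 and 646 bp in B4 and B6. In CLBL-1 it covered 2395 and 2414 bp in the control and 2416, 2411 and 2260 bp in the C220 libraries. All CLBL-1 peaks began at about the same place as those of the day 4 line and ran on beyond them. The log2 difference in width was −1.74 (731 ± 184 against 2379 ± 67.1 bp, SD, n = 5 each; exact permutation adjusted p = 0.0376). Fold enrichment went the other way, 3.56 ± 0.13 in the day 4 line against 2.79 ± 0.11 in CLBL-1 (log2 difference 0.35, exact permutation adjusted p = 0.0364). The call was also lost without any one of the CLBL-1 libraries, where no region could pass, at differences of 0.33 to 0.37. Taken on −log10 p it did not pass either (log2 difference 0.56, exact permutation adjusted p = 0.176). At −102.1 kb peaks were likewise narrower in the day 4 line (668 ± 44.1 against 856 ± 67.6 bp, log2 difference −0.36, exact permutation adjusted p = 0.0376). In the window 2 of 7 regions were narrower in the day 4 line and 0 wider, against 13.6% narrower and 7.51% wider of all 9179.

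**Figure D4:**
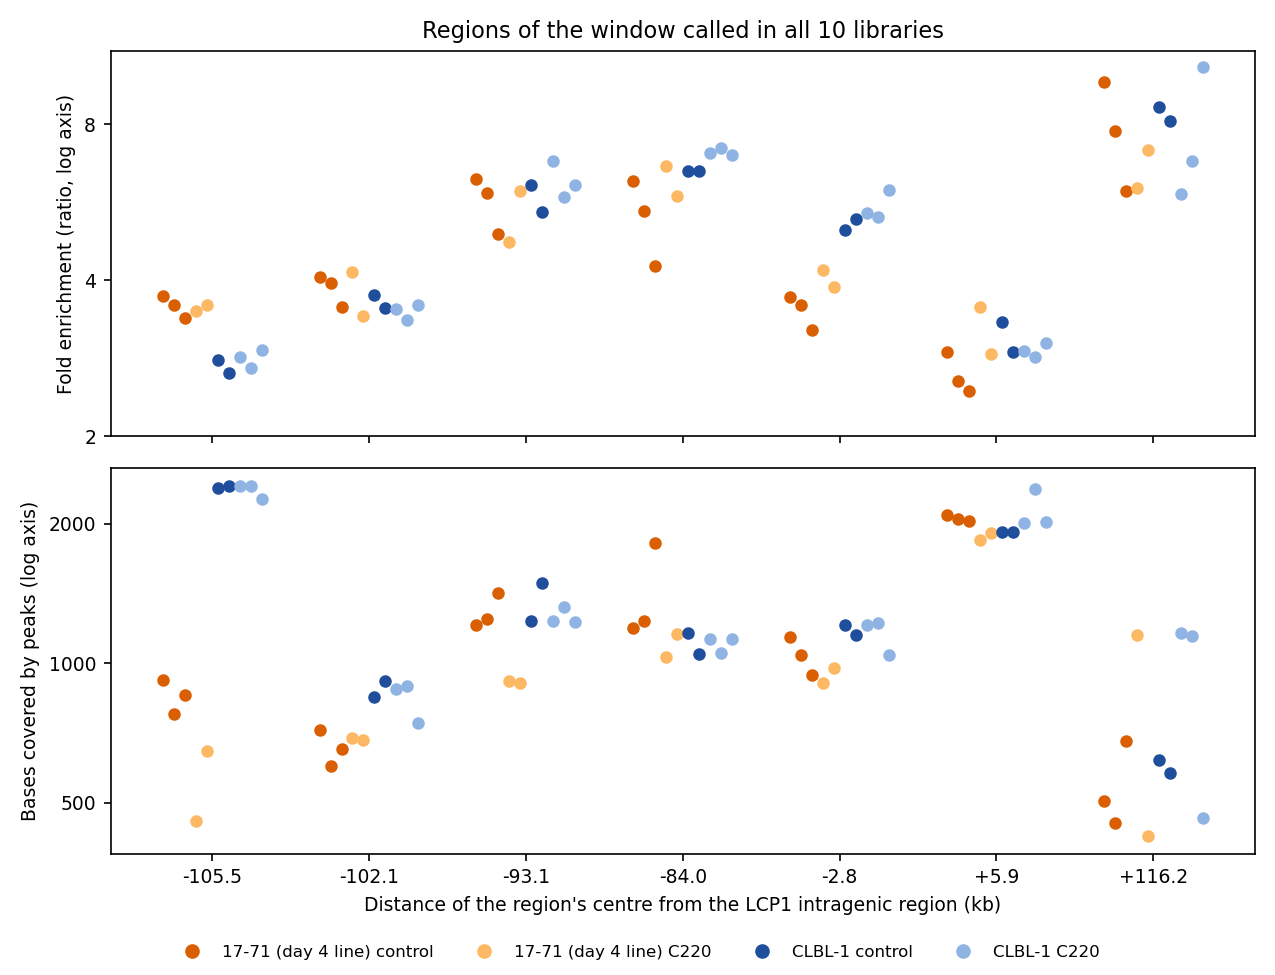
Fold enrichment (top) and bases covered by peaks (bottom) of every library at the 7 regions of the window called in all 10 libraries, on log axes, by distance of the region's centre from the intragenic LCP1 region. The lines separate in fold enrichment at −105.5 kb and at −2.8 kb, the start of LCP1, in opposite directions, and in width at −105.5 and −102.1 kb.

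Counted over the window, 7 of 23 regions were called in all 10 libraries, which is 30.4% against 15.4% of all regions. A call in all day 4 and no CLBL-1 libraries was found at 2 of 23 regions, against 10.9% of all regions, and at 4 regions with B4 left out. These were chr22:4872889-4873893 with fold enrichments from 4.51 to 5.01 and chr22:4894116-4895278 with 5.68 to 7.95, both named after their values were seen. At neither did control and C220 libraries of the day 4 line separate in fold enrichment, while −log10 p was lower in both C220 libraries at each. Of the 12 regions called in CLBL-1, 0 were called in every control and no C220 library, against 0.499% of all 32440, and 0 showed the reverse, against 1.71%. The median log2 difference between C220 and control was 0.01 over 10 regions of the window and −0.05 over all 17601 regions in the day 4 line, and −0.01 and 0.00 in CLBL-1. Between the lines the median was −0.12 over the 7 regions of the window and −0.16 over all 9179.

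The remaining regions were called in fewer libraries. Those called in 1 library numbered 6, of which 3 came from B1, the longest list. A region at −97.2 kb was called in B2, B3 and B4, and one at −51.7 kb in B1, B2, B3 and B6. At −139.4 kb all libraries but B4 had a call, with fold enrichments from 2.53 to 3.51 in the control libraries of the day 4 line, 2.66 in B6 and 3.56 to 4.09 in CLBL-1. Peaks there measured 820 ± 33.6 bp (SD, n = 3) in day 4 control and 1626 ± 111 bp (SD, n = 5) in CLBL-1 libraries. The window as a whole was rich in peaks, with 136 against a median of 39 over the 5604 tiles of 400 kb that held a peak, 94.1% of which had fewer. These counts pool the peaks of all 10 libraries. The window was placed around a called region and the tiles were not, so they are not alike in choice.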

How the data were processed

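ATAC-seq peak lists of 10 libraries were analysed. Per the labels and methods, the authors mapped paired reads with Bowtie2 2.2.4 against CanFam3.1 and made a broad-peak list per library in MACS2, with no pooling, at a −log10 p limit of 5. CASAVA and deepTools are also named in the submitters' processing notes. Not given in the sources used here were the version of MACS2 and any removal of duplicate reads. The deposited lists give each peak's fold enrichment (a ratio) and the −log10 of its p-value and q-value, not scaled between libraries. The deposited score column and the q-values were not used. No depth is held in the lists, so intervals that need it are not given. The study's region table served only for coordinates and gene names; its counts, fold changes and p-values were not used.

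Touching or overlapping peaks of all libraries were merged, an overlap of 1 bp counted as a call, and a library's level was its largest fold enrichment in a region. Regions were compared by exact permutation of mean log2 fold enrichment, with Benjamini-Hochberg adjustment at 0.05 over all regions called in all 10 libraries. The regions given library by library were the intragenic LCP1 region, those in the study's table and the 2 others of largest median fold enrichment. Further regions given in this way were chosen for mention after their values were seen, as stated at each. Members and lists were chosen with earlier results of these data known. The marker and cytoskeleton gene lists were not looked up. The comparison of widths and the lowest ratios called were added after the data were seen. Merging and tests were tested on simulated data. Calculations used Python 3.11.15, numpy 2.4.6, pandas 2.3.3 and matplotlib 3.10.9. Coordinates are 1-based.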

Additional observations from a re-analysis of the deposited data

How the results depend on the processing

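Depth limits every statement on a missing call, since the lists hold none, and groups of 2 or 3 libraries cannot reach an exact p below 0.1 within a line. No paired analysis was possible because control and C220 libraries of a line share no replicate number. With −log10 p of at least 10, the intragenic LCP1 region was called in 1 control library, 2 regions of the window were lost in the day 4 line, 0 were called in CLBL-1 alone, 0 were higher in the day 4 line than in CLBL-1, and 0 had all CLBL-1 C220 libraries below control. Lists of 20000 peaks gave 0 lost regions. Where peaks had to cover 50% of a region, 2 were lost, 3 were called in CLBL-1 alone, 4 in all 10 libraries and 0 were higher in the day 4 line. Within 100 kb there were 12 regions, with 0 called in the day 4 line alone, 4 in all 10 libraries and 0 higher in the day 4 line. By fold rank within a library 2 regions were higher in the day 4 line, 3 had all day 4 C220 libraries above control and 0 all CLBL-1 C220 libraries below. By −log10 p, 0 regions in CLBL-1 separated either way, and in the day 4 line 0 had C220 above and 10 C220 below. Control libraries alone, or C220 libraries alone, gave 0 line differences in either direction, having too few relabellings. Leaving out each library gave 1 to 5 lost regions (5 without B6), 0 to 1 gained and 2 to 4 called in the day 4 line alone. It gave 0 to 1 higher and 0 to 3 lower in the day 4 line, with 0 where a CLBL-1 library was left out and none could pass. It also gave 1 to 6 regions with C220 above and 0 to 4 below control in the day 4 line, and 2 to 6 above and 1 to 4 below in CLBL-1. Line differences that had not passed the threshold turned positive by rank at −93.1 kb (0.77 percentage points), 5.9 kb (3.76) and 116.2 kb (1.20). They did so by log2 of −log10 p at −93.1 kb (0.18), −84.0 kb (0.04) and 5.9 kb (1.11, exact permutation adjusted p = 0.032), and in C220 libraries alone at 5.9 kb (0.13). The causes were not tested. Of the line differences of single regions 81 kept direction and side of the threshold, 15 fell short of it and 2 came to pass it with their direction kept, beside the 7 that turned. Those 2 were at −84.0 kb without B4 and at −102.1 kb by rank. Most of the 15 came from runs in which no region could pass. In CLBL-1 127 differences between C220 and control kept their direction and 3 turned, by log2 of −log10 p at −139.4 kb (0.07) and 116.2 kb (0.07) and without C2 at 5.9 kb (0.01, in a range of −0.18 to 0.01 over the libraries left out in turn).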
